A study of Mus musculus with 43 samples.

Results

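The genes described here are 37 mouse genes that act in late G2 phase and mitosis. They were taken by name from the deposited count tables, and all 37 were present among the 23154 gene symbols of the stage tables and among the 24414 of the sorted tables. The study measured RNA in picked single cells of the mouse yolk sac, the extraembryonic membrane in which the first blood and vessels form, with a modified tagged reverse transcription protocol that starts from oligo-dT primers. The labels give endothelial cells of the yolk sac at 5 stages, with 2 libraries at E8.0, 10 at E8.5, 9 at E9.0, 10 at E9.5 and 9 at E10.0, where E is the day of embryonic development. A further 3 samples, with 1 library each and no stage in the labels, were sorted on Gja5 and Cd44. From the yolk sac (YS) came a Gja5+Cd44+ sample and a Gja5-Cd44+ one, and the last was Gja5+Cd44+ and marked CR, which the labels do not spell out. Gja5 encodes a connexin of arterial endothelium, and Cd44 encodes a cell surface receptor for hyaluronan. The labels name no mouse strain, genotype or treatment for any group, and do not say how many embryos a library pooled, so each library was taken as a replicate and p-values measure the spread between libraries, which may be technical.

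The stage libraries held 478 cells, 5 to 59 in each. Library totals ran from 2172087 to 42245455 counts, with a median of 589909 counts per cell, and from 8344180 to 11492877 in the sorted samples. No column of counts was identical to another, and no cell name was shared between libraries (0 of each). Every stage cell fell into 1 of 2 classes. A blood-marker cell had at least 3 of 12 blood genes at 10 CPM or more, where CPM scales the counts of a gene by the total of its cell or library, and 183 cells met this. The remaining 295 had the endothelial cadherin gene Cdh5 at 10 CPM or more and are called Cdh5 cells. All 10 endothelial markers of a list that includes Pecam1, Tie1 and Kdr had a median of at least 10 CPM in Cdh5 cells, where their summed CPM had a median of 5876, against 491 in blood-marker cells. In blood-marker cells 8 of the 10 had a median of at least 10 CPM. Cdh5 is itself 1 of the 10, so the number of Cdh5 cells follows from the gate and is no check of the labelled cell type. The classes were unevenly spread over stages: blood-marker cells were 28 of 57 at E8.0, 58 of 132 at E8.5, 37 of 97 at E9.0, 58 of 110 at E9.5 and 2 of 82 at E10.0. Column names tag 18 cells of 1 E8.0 library as 41posi. Most libraries held 5 to 10 cells, and 7 larger ones held 16 to 59. The larger ones from E8.5 onward carry consecutive batch numbers.

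Entry into mitosis is driven by the kinase Cdk1 bound to a B-type or A-type cyclin. Plk1 and the Aurora kinases then guide centrosomes, spindle and kinetochores, and the spindle checkpoint holds the cell in metaphase until every chromosome is attached. Cdc20 next turns on the anaphase-promoting complex, an enzyme that marks cyclin B and securin for destruction, so that chromosomes part and the cell divides. Most of these RNAs are low in G1 phase, rise through G2 and fall after division, under the MuvB complex with B-Myb and FoxM1 and under NF-Y at CCAAT boxes. A population of cells with few of these RNAs holds many cells outside G2 phase and mitosis. The level per cell alone does not tell a resting cell from a cell in G1 phase.

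The promoters of many of these genes hold the letters that this gene class is known for. RefSeq promoter windows (GRCm38.p6, 250 bases before to 50 after the start of a gene) were matched for 32 of the 37 genes. The letters TTTGAA, the core of the CHR element bound by the MuvB complex, stood on either strand in 22 of the 32 (68.8%), against 20.2% of all 27025 genes with a window. The letters CCAAT on either strand stood in 24 (75%), against 41.1%. Both stood in 19 (59.4%), against 7.97% of all genes. A match is a description of letters, not of binding. Shown are the windows of 4 genes that fell from E8.5 to E10.0, on the strand of the gene with the motif matches in capitals, none of which overlap. Plk1 lies at chr7:122159185-122159484 (plus strand), Cdc20 at chr4:118437294-118437593 (minus strand), Aurka at chr2:172370521-172370820 (minus strand) and Ccnb1 at chr13:100786437-100786736 (minus strand).
Plk1: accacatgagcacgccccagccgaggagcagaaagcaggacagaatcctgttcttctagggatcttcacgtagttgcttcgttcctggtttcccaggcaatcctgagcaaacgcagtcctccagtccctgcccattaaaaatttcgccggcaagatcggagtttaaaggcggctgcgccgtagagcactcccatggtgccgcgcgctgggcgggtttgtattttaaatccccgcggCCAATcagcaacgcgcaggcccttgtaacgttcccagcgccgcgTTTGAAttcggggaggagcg
Cdc20: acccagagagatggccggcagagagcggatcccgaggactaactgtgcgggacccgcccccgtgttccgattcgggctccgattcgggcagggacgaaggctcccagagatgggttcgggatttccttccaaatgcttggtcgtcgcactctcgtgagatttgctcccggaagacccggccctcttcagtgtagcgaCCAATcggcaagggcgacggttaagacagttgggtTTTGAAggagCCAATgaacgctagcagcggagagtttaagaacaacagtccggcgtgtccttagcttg
Aurka: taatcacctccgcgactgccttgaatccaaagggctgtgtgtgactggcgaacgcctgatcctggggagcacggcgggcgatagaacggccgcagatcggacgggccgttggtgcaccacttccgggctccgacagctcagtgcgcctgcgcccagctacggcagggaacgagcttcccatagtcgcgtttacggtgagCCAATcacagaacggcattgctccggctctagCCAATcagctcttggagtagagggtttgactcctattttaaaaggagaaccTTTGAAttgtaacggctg
Ccnb1: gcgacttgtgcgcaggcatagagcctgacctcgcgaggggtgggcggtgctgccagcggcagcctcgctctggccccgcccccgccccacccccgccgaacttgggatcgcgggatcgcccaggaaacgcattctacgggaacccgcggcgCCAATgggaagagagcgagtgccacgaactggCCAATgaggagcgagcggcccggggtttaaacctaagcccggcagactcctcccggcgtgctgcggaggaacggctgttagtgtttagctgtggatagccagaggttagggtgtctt
Positions give the first base of a match, counted from the start site. Plk1 held TTTGAA at position 31 and CCAAT at -14. Cdc20 held CCAAT at positions -53 and -8 with TTTGAA between them at -18. Aurka had CCAAT at -51 and -19 and TTTGAA at 33. The Ccnb1 window held CCAAT at -99 and -67 and no TTTGAA (0 matches). Of the other genes, Top2a and Ube2c had 6 CCAAT matches each, and Mad2l1, Nuf2, Nusap1, Tacc3 and Birc5 had 0 of either motif.

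Cells with few mitosis RNAs were found mostly at E10.0. To compare cells of unequal depth, each cell was thinned to 100000 counts, and the mitosis genes with at least 1 count left were numbered. At E8.5 a cell had a median of 32 of the 37, and no cell had fewer than 19. The median was 32 at E8.0, 30 at E9.0, 30 at E9.5 and 25.5 at E10.0, where the lowest cell had 4. Cells with 15 or more were all 57 cells at E8.0, all 132 at E8.5, 93 of 97 at E9.0, 98 of 110 at E9.5 and 57 of 82 at E10.0. Of the 478 cells, 22 lay near the limit of 15, 6 of them at E10.0. This limit is low, so the share marks cells with at least part of the set, not cells in mitosis.

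Taken per library, the share with 15 or more was 100% in all 10 libraries of E8.5 and both of E8.0. It was 94.0% ± 7.09 (SD, n = 9) at E9.0, 89.9% ± 11.6 (n = 10) at E9.5 and 77.4% ± 16.1 (n = 9) at E10.0. The E10.0 libraries ran from 53.1% to 100% with a median of 75%, and 2 of 9 stood at 100%. The share at E10.0 was 22.6 percentage points lower than at E8.5 (exact permutation test over libraries, two-sided, adjusted p = 0.00357). The steps between neighbouring stages did not pass the test. The differences were -5.95 points from E8.5 to E9.0 (adjusted p = 0.0813, exact permutation), -4.14 points from E9.0 to E9.5 (adjusted p = 0.518) and -12.5 points from E9.5 to E10.0 (adjusted p = 0.112). The last was -15.5 points (adjusted p = 0.0421, exact permutation) without E9.5 replicate 7. That library is the lowest of E9.5 at 62.5%, so leaving it out had to widen the difference. The step from E8.5 to E9.0 passed with a limit of 20 genes (-15.4 points, adjusted p = 0.00111, exact permutation), and that from E9.5 to E10.0 with a limit of 10 (-8.86 points, adjusted p = 0.0196) or 20 (-17.1 points, adjusted p = 0.0405). The libraries of E9.5 and E10.0 also differ in class of cell, which cannot be told apart from stage over all cells. The E8.5 and E8.0 means were equal (difference of 0). The larger libraries ran the same way, as single libraries: 59 of 59 cells at E8.5, 39 of 39 at E9.0, 22 of 25 and 26 of 29 at E9.5, and 17 of 32 at E10.0 (53.1%, exact Clopper-Pearson interval 34.7% to 70.9%). When consecutive batches were pooled, leaving 3 units a stage, the difference from E8.5 to E10.0 was -29.0 points and did not pass (adjusted p = 0.25, exact permutation).

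**Figure D1:**
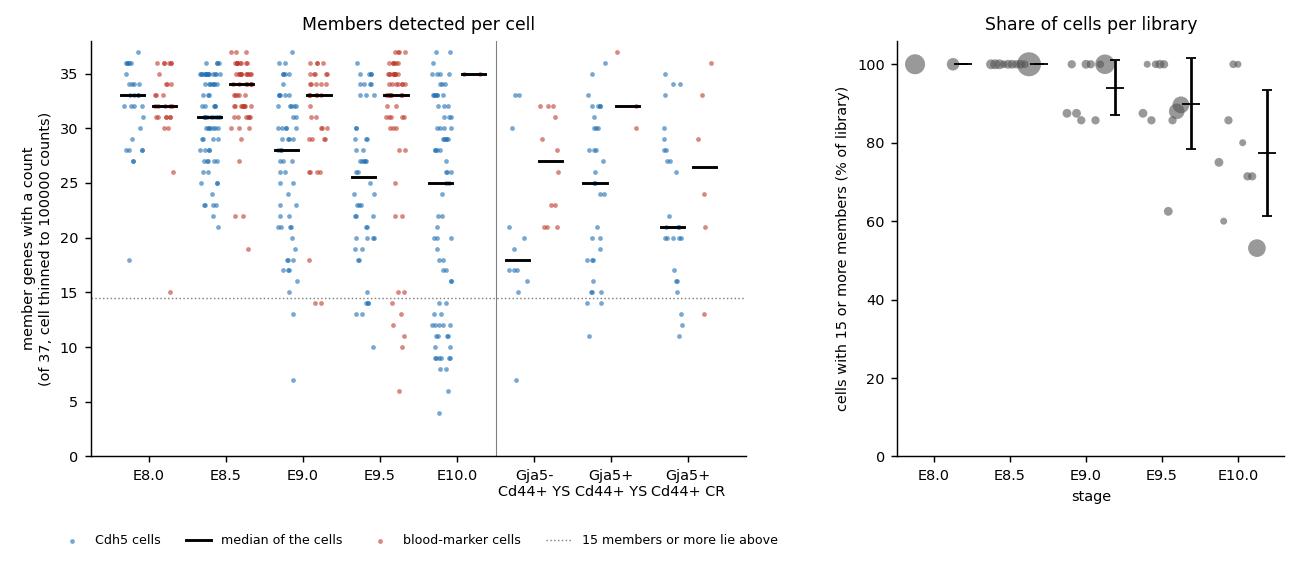
Left, the number of the 37 mitosis genes with a count in each cell after thinning to 100000 counts, by group, with Cdh5 cells in blue, blood-marker cells in red and bars at the medians. Right, the percentage of cells with 15 or more of these genes in each library (1 circle a library, larger for more cells) with mean ± SD. Both E8.0 libraries and all 10 of E8.5 stand at 100%, while the E10.0 libraries run from 53.1% to 100%.

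Cells with few mitosis RNAs at E10.0 also had fewer genes of any kind. After thinning, a cell had a median of 6311 detected genes at E8.5 and 4809 at E10.0. Within E10.0 the 25 cells with fewer than 15 mitosis genes had a median of 4157 genes and 260380 counts before thinning, and the 57 others had 5229 genes and 481349 counts. The part of this in the share was not tested. Those 25 cells were endothelial by marker: all 10 endothelial markers had a median of at least 10 CPM, with a summed median of 7481, and 11 of the 12 blood markers had a median of 0. Their summed CPM over the 37 mitosis genes had a median of 581, against 4357 over all E10.0 cells. Their median for Birc5, the survivin subunit of the chromosomal passenger complex, was 15 CPM, and for Top2a, the topoisomerase that untangles chromosomes, 7 CPM.

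The spread between cells was wide at E10.0, while the mean of the summed set over libraries was no lower there than at E8.5. Summed over the 37 genes, a cell of E8.5 had a median of 5514 CPM and a cell of E10.0 one of 4357, with interquartile ranges of 3825 to 7303 and 887 to 9651. Cells under 1000 summed CPM numbered 1 of 132 at E8.5, 3 of 97 at E9.0, 10 of 110 at E9.5 and 22 of 82 at E10.0. Summed per library, the 37 genes took 6216 ± 703 CPM (SD, n = 10) at E8.5 and 7059 ± 1826 (n = 9) at E10.0, so libraries overlapped widely at 5398 to 7185 and 3900 to 9485. The cells of E10.0 with 15 or more genes had a median of 7620 CPM among Cdh5 cells, against 4892 in Cdh5 cells of E8.5. Only the upper part of the E10.0 cells is in that comparison, which takes cells by the same genes, so it is a description.

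For each gene, the share of its summed CPM that lay in the 25% of cells with the highest level measures this concentration. It was larger at E10.0 than at E8.5 for 37 of 37 genes, with medians over genes of 53.7% at E8.5, 63.3% at E9.0, 65.2% at E9.5 and 75.5% at E10.0. Of the 13066 genes tested between these stages that had a count at both, 68.5% were more concentrated at E10.0, so the direction was common to most genes. The median change was 23.1 points over the 37 and 7.17 points over all, where the median gene already stood at 77.1% at E8.5. Cells of E10.0 also had fewer detected genes, as given above, and the part of this was not tested. Cdc20 went from 48.5% to 83.4% and Kif11, the motor that pushes spindle poles apart, from 54.3% to 84.4%. Plk1 went from 52.4% to 77.7%. Birc5, with 37.1%, was the least concentrated of the 37 at E8.5, and Bub3, a checkpoint protein, with 53.3%, at E10.0, where Birc5 had 54.9%. The typical cell moved further than the mean. The median Cdc20 level was 154 CPM at E8.5 and 8.37 CPM at E10.0, while its mean over cells was 170 and 100. The median Plk1 level was 144 CPM and 7.25 CPM, with means of 166 and 115. Among Cdh5 cells alone 36 of 37 genes were more concentrated at E10.0 (medians of 56.1% and 78.1%), against 75.2% of all genes. Among cells with 15 or more genes, which are chosen by the same genes, 37 of 37 were (53.7% and 62.6%), against 67.0% of all genes.

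**Figure D2:**
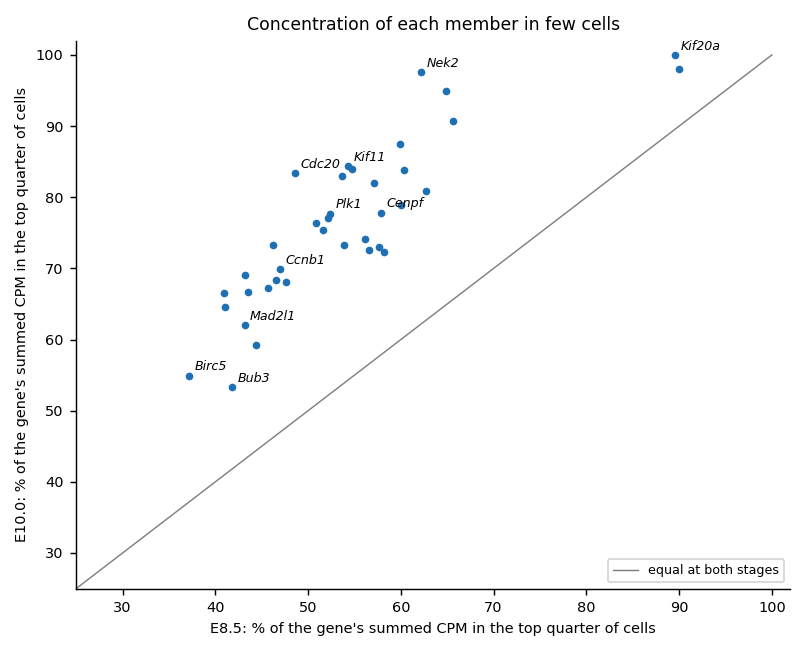
Each point is 1 of the 37 mitosis genes. The axes give the percentage of its CPM, summed over cells, that lay in the 25% of cells with the highest level, for E8.5 (x) and for E10.0 (y), and the line marks equality. All 37 lie above it, where 68.5% of all genes do, with Cdc20 at 48.5% and 83.4% and Birc5 at 37.1% and 54.9%.

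Library levels moved in opposite directions for different members between E8.5 and E10.0. Counts summed per library were tested with the quasi-likelihood test of edgeR over all genes, and a gene was called at a Benjamini-Hochberg adjusted p under 0.05. Of the 37 genes 11 were called, with 5 of them higher and 6 lower at the later stage. Over all 13929 genes tested 31% were called (15.2% higher, 15.8% lower), so the share of mitosis genes is near the background. DESeq2 called 13, among them the same 11. The median log2 fold was 0.10 over the 37 and 0.04 over all genes. The E10.0 libraries are nearly all Cdh5 cells and those of E8.5 are not, and the comparison within Cdh5 cells, given below, has 4 libraries of E8.5, with 52 of the 74 cells in 1 of them. The count was 7 without E10.0 replicate 6, between 8 and 12 without each other library in turn, and 0 when consecutive batches were summed, which leaves 3 units at each of E8.5 and E10.0. Ccnb1, Cdc20, Mad2l1, Cenpe and Nusap1 passed in each fit that left out 1 library.

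Among cyclins and their activators, Ccnb1 fell, and the other 5 were not called. Ccnb1 encodes cyclin B1, the main partner of Cdk1 in mitosis. Its libraries ran from 254 to 368 CPM at E8.5 with a median of 329, and from 111 to 320 with a median of 201 at E10.0. In 7 of the 9 E10.0 libraries it lay below every E8.5 library, and in the other two within their range. The log2 fold was -0.77 ± 0.20 (SE, edgeR adjusted p = 0.00344). Levels were 261 ± 3.24 CPM (n = 2) at E8.0, 241 ± 93.6 (n = 9) at E9.0 and 283 ± 76.3 (n = 10) at E9.5. Ccna2, cyclin A2, had a log2 fold of -0.38 and Cdk1 of 0.13, neither called.

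All 4 mitotic kinases had negative folds, and Plk1, Aurka and Nek2 fell. Plk1, which drives centrosome maturation and mitotic exit steps, ran from 143 to 248 CPM at E8.5 (median 194) and from 75.4 to 210 at E10.0 (median 101). In 5 of the 9 E10.0 libraries it lay below every E8.5 library. Its log2 fold was -0.68 ± 0.24 (edgeR adjusted p = 0.0254), and the call was lost without E10.0 replicate 2 or 7. Aurka, the centrosome Aurora kinase, had a log2 fold of -0.78 ± 0.29 (edgeR adjusted p = 0.0380) and Nek2, a kinase that splits centrosomes, -1.05 ± 0.42 (adjusted p = 0.0492). Aurka lost its call without E10.0 replicate 2, 6, 7, 8 or 9 or E8.5 replicate 8 or 9, where the adjusted p reached 0.0755. Nek2 lost it without any of 14 libraries (E10.0 replicates 4 and 6 to 9, E8.5 replicates 1 to 9), where it reached 0.0783. Both also lost it with the size factors of DESeq2. Aurkb, the kinase of the chromosomal passenger complex, had -0.56 ± 0.23 and was not called (adjusted p = 0.0550).

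Of the 5 spindle checkpoint genes, Mad2l1 fell. It encodes Mad2, which binds and holds Cdc20. Libraries ran from 78.6 to 155 CPM at E8.5 (median 121) and from 39.1 to 118 at E10.0 (median 91.9). In 3 of the 9 E10.0 libraries it lay below every E8.5 library, and the log2 fold was -0.56 ± 0.18 (edgeR adjusted p = 0.0148). Cdc20 itself, the activator of the anaphase-promoting complex, fell by 0.94 on the log2 scale (SE 0.28, edgeR adjusted p = 0.0103). Its libraries ran from 135 to 316 CPM at E8.5 (median 209) and from 8.85, in E10.0 replicate 8, to 189 (median 108). In 5 of the 9 E10.0 libraries it lay below every E8.5 library. Ube2c, the ubiquitin-conjugating enzyme of the same complex, had a log2 fold of 0.11 and was not called.

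The 5 genes that rose at E10.0 over all cells were Cenpe, Cenpf, Nusap1, Kif23 and Anln. Of these, only Nusap1 was called within Cdh5 cells. Anln and Kif23 were also higher in Cdh5 than in blood-marker cells of the same libraries, as given below, so stage and class of cell cannot be told apart for them here. Cenpe, a kinetochore motor that carries chromosomes to the metaphase plate, rose by 0.84 ± 0.22 (log2, edgeR adjusted p = 0.00397). Cenpf, a kinetochore protein whose RNA peaks in G2 phase, ran from 137 to 345 CPM at E8.5 (median 191) and from 119 to 563 at E10.0 (median 373). In 5 of the 9 E10.0 libraries it lay above every E8.5 library, and the lowest was replicate 9, the largest library of that stage. Its log2 fold was 0.69 ± 0.25 (adjusted p = 0.0313). Nusap1, a microtubule bundler near chromosomes, rose by 1.10 ± 0.29 (adjusted p = 0.00369). Kif23, a kinesin of the central spindle, rose by 0.78 ± 0.27 (adjusted p = 0.0262), and Anln, the anillin scaffold of the cleavage ring, by 0.74 ± 0.25 (adjusted p = 0.0239). Calls were lost for Anln without E10.0 replicate 5 or 6, for Kif23 without E10.0 replicate 2, 5 or 6, and for Cenpf without E10.0 replicate 4 or 6 or E8.5 replicate 2 or 6. Cenpf also lost its call with no filter on low counts (adjusted p = 0.0574).

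The remaining representatives of their roles were not called from E8.5 to E10.0. Kif11 had 93.0 ± 27.8 CPM (n = 10) at E8.5 and 101 ± 69.1 (n = 9) at E10.0. Birc5 had 482 ± 53.2 CPM and 575 ± 184 CPM. Top2a had 430 ± 107 CPM and 586 ± 233 CPM, and Mki67, which coats mitotic chromosomes and marks cycling cells, 330 ± 68.2 CPM and 499 ± 196 CPM. The log2 fold of Mki67 was 0.50 ± 0.25 (edgeR adjusted p = 0.127). In each of these 4 the spread over E10.0 libraries was wider than over those of E8.5.

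**Figure D3:**
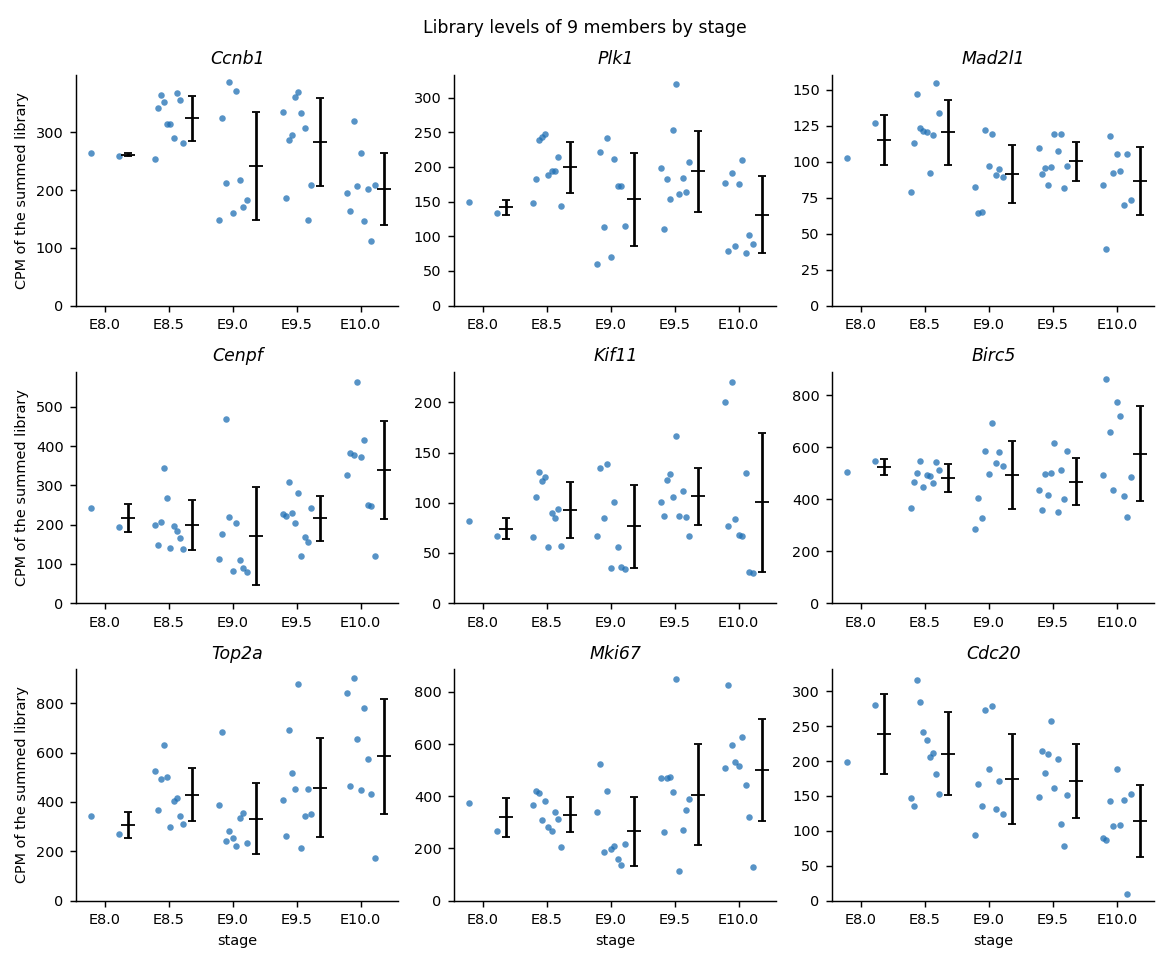
CPM of 9 mitosis genes in each stage library, with counts summed over all cells of the library (1 point a library) and mean ± SD beside. Ccnb1, Plk1 and Cdc20 have lower means at E10.0 than at E8.5 (202 and 324 CPM for Ccnb1), Cenpf a higher one (339 and 199 CPM), and the E10.0 points are widely spread.

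From E9.5 to E10.0, 7 of the 37 genes were called, 3 higher (Anln, Cenpe and Kif23) and 4 lower (Nek2, Aurkb, Plk1 and Ccnb1), with 26.8% of all genes called (10.4% higher, 16.4% lower). This comparison shares its E10.0 libraries with the one before. It also sets libraries of different make-up side by side: E9.5 replicates 1 to 8 hold 1 Cdh5 cell in all, and E10.0 replicates 1 to 8 hold Cdh5 cells only, so stage and class of cell cannot be told apart here. Anln and Kif23, higher at E10.0, were also higher in Cdh5 than in blood-marker cells of the same libraries, as given below with that comparison. In Cdh5 cells alone Anln had 99.6 and 105 CPM in the 2 libraries of E9.5 with at least 3 such cells and 138 ± 58.0 (n = 9) at E10.0, and Kif23 had 75.4 and 94.6 CPM against 147 ± 81.9, with no test. The log2 folds were 1.03 ± 0.25 for Anln (edgeR adjusted p = 0.00300), 0.96 ± 0.27 for Kif23, 0.63 ± 0.22 for Cenpe, -0.58 ± 0.20 for Ccnb1, -0.65 ± 0.24 for Plk1, -0.74 ± 0.23 for Aurkb and -1.18 ± 0.42 for Nek2. The adjusted p of the other 6 ran from 0.00902 for Kif23 to 0.0369 for Plk1. The count was 4 without E10.0 replicate 6, E9.5 replicate 6 or E9.5 replicate 8, and 0 with consecutive batches summed. Anln, Kif23 and Aurkb passed in each fit that left out 1 library, and each of the other 4 lost its call in several. No member (0) was called between E8.5 and E9.0, E9.0 and E9.5, or E8.0 and E8.5, by edgeR or by DESeq2. At an unadjusted p under 0.05 edgeR counted 2, 3 and 0 of the 37. The shares of all genes called were 0.524%, 0% and 0%.

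Within Cdh5 cells 1 gene was called between E8.5 and E10.0, where 6.07% of 12051 genes were (2.86% higher, 3.21% lower). Nusap1 ran from 43.9 to 62.6 CPM in the 4 libraries of E8.5 with at least 3 such cells, and from 40.5 to 413 in the 9 of E10.0. The median at E10.0, 160 CPM, lay above every library of E8.5. Its log2 fold was 1.73 ± 0.51 (edgeR adjusted p = 0.0362), and the call was lost without E10.0 replicate 1, 3 or 5, or E8.5 replicate 1, 2, 3 or 10. Members with an unadjusted p under 0.05 numbered 6, and DESeq2 called 2 (Mki67 and Nusap1). With gates at 1 count in place of 10 CPM the count was 0. Cdc20 was at 185 ± 114 CPM (n = 4) and 110 ± 49.6 (n = 9), and its log2 fold of -0.80 ± 0.43 was not called. Plk1 had -0.61 ± 0.34 and Ccnb1 -0.47 ± 0.26, not called. These folds had the sign of those over all cells, from fewer libraries of E8.5.

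Against E9.0, Cenpf and Mki67 rose in Cdh5 cells at E10.0 (2 of 37, with 2.36% of all genes called, 0.772% higher and 1.59% lower). Cenpf had 107 ± 60.5 CPM (n = 5) at E9.0 and 340 ± 122 (n = 9) at E10.0, a log2 fold of 1.54 ± 0.32 (edgeR adjusted p = 0.00768). Mki67 had 201 ± 96.3 CPM and 501 ± 194 CPM, a log2 fold of 1.20 ± 0.29 (adjusted p = 0.0193). The ranges of Mki67 overlapped, at 84.3 to 347 and 138 to 826 CPM. The count was 4 without E10.0 replicate 9 and 1 without E9.0 replicate 6 or 7, and Mki67 also lost its call without E9.0 replicate 8. DESeq2 called 5. No member (0 by edgeR and by DESeq2) was called between E8.5 and E9.0 or between E8.0 and E8.5 in Cdh5 cells, with 1 and 0 at an unadjusted p under 0.05 and 0.0498% and 0.0166% of all genes called.

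The share of Cdh5 cells with 15 or more mitosis genes was 100% in all 4 libraries of E8.5 and 77.1% ± 16.7 (n = 9) at E10.0. The difference of -22.9 points did not pass after adjustment (exact permutation test, p = 0.0364, adjusted p = 0.0969). Without E10.0 replicate 4 or 5 it was -25.8 points (adjusted p = 0.0451, exact permutation). Those are the 2 E10.0 libraries at 100%, so leaving either out had to widen the difference. With gates at 50 CPM, which brings in 8 libraries of E8.5, the difference passed (-22.9 points, adjusted p = 0.00905, exact permutation). These gates raise the limit for blood markers too, so blood-marker cells can count as Cdh5 cells there. E8.5 replicates 4 to 9 held 1 or 2 Cdh5 cells each at 10 CPM, so this pass is not over the same cells. Between E9.0 and E10.0 the difference was -18.9 points (adjusted p = 0.0969, exact permutation). Without E10.0 replicate 4 or 5, which again had to widen it, the difference was -21.8 points (adjusted p = 0.0451). Over cells the counts were 74 of 74 at E8.5, 58 of 60 at E9.0, 46 of 52 at E9.5 and 55 of 80 at E10.0. With 30 or more genes, a limit chosen after the data were seen, they were 49, 25, 14 and 26, and the difference from E8.5 to E10.0 passed (-33.5 points, adjusted p = 0.0336, exact permutation), as did that from E8.5 to E9.0 (-33.6 points, adjusted p = 0.0476).

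**Figure D4:**
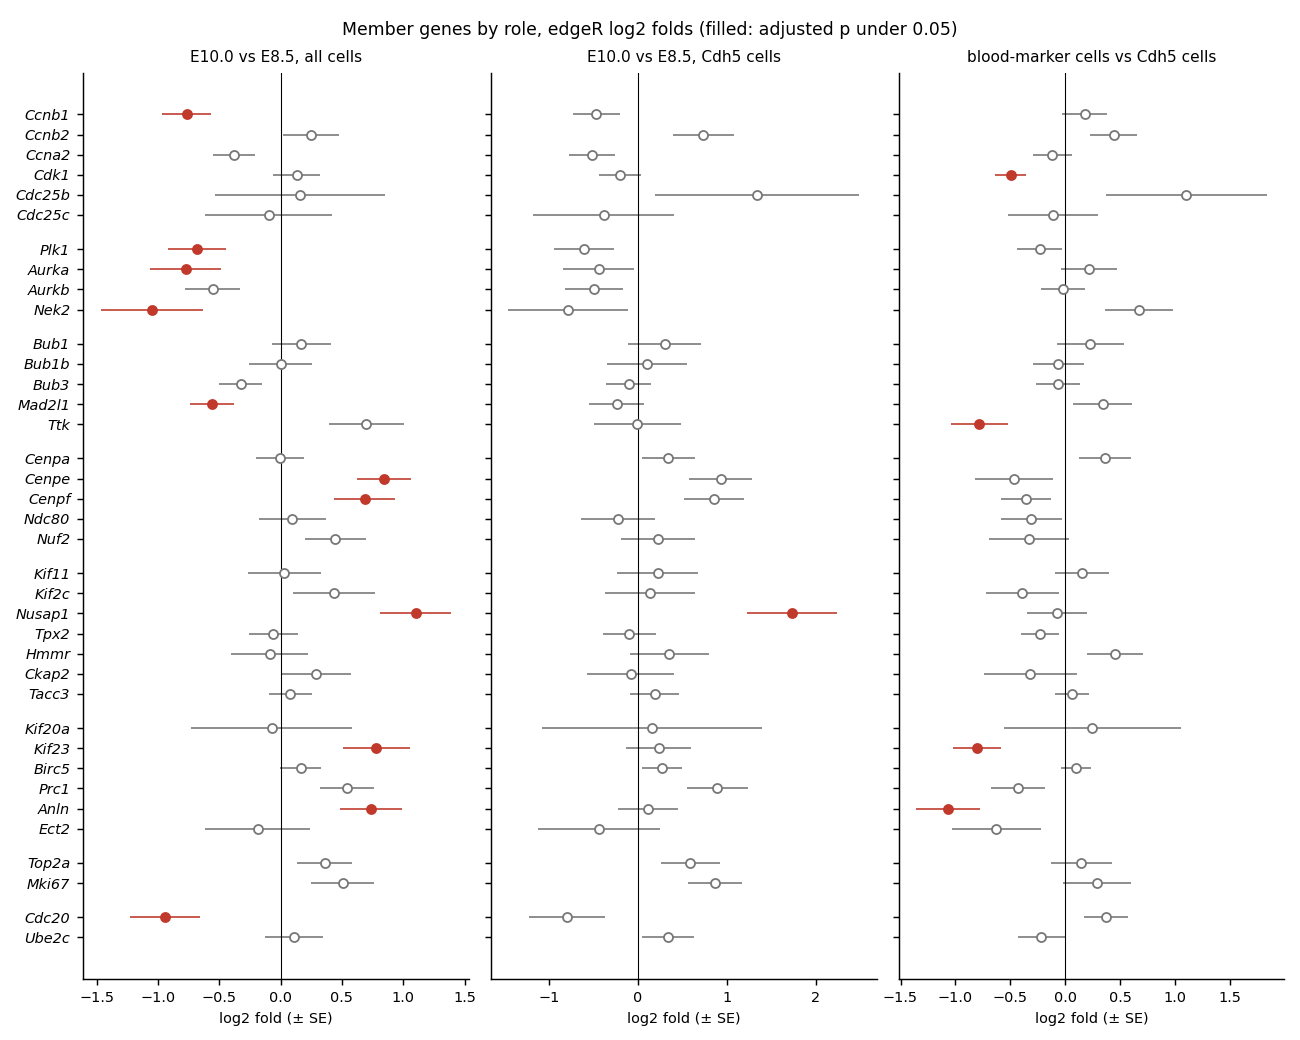
Log2 folds of the 37 mitosis genes, grouped by role, with bars of 1 SE, in 3 comparisons. Filled red points have an edgeR adjusted p under 0.05, of which there are 11 from E8.5 to E10.0 over all cells, 1 in Cdh5 cells and 4 between blood-marker and Cdh5 cells.

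Loss of detection was seen across the set. For each gene, the share of cells with a count after thinning was compared between E10.0 and E8.5 over libraries, over all genes, by an exact permutation test that was added after the data were seen. Of the 37 genes 31 were detected in fewer cells at E10.0 and 0 in more. Over 10050 genes 53.4% passed, 47.7% lower and 5.78% higher. The median difference was -20.7 points over the 37 and -15.3 points over all genes. The largest was in Nek2, detected in 74.6% ± 15.3 of cells (n = 10) at E8.5 and 29.4% ± 19.1 (n = 9) at E10.0 (adjusted p = 0.000689, exact permutation). Plk1 went from 96.7% ± 5.30 to 56.9% ± 18.1 and Cdc20 from 97.2% ± 4.60 to 58.5% ± 20.5, both at an adjusted p of 0.000273. Of the 5 genes that rose in library level, Cenpf, Nusap1, Kif23 and Anln were detected in fewer cells over both classes, as with Cenpf at 97.2% and 77.3% (adjusted p = 0.00363, exact permutation). Within Cdh5 cells none of these passed. Nusap1 stood there at 59.7% at E8.5 and 58.8% at E10.0, Cenpf at 89.3% and 77.0%, Kif23 at 91.2% and 73.3%, and Anln at 95.7% and 65.9%. Birc5 went from 100% to 93.5% ± 7.06. In Cdh5 cells 2 of 37 passed, Plk1 (97.6% and 56.5%) and Bub1b, a checkpoint kinase-like protein (86.4% and 58.8%). There 8.41% of 9870 genes passed, 8.11% lower and 0.304% higher, with 4 libraries at E8.5.

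Differences by Gja5 status within libraries did not pass the tests. Cdh5 cells with Gja5 at 10 CPM or more were set against those below it in the 6 libraries that had at least 3 of each kind. The share with 15 or more mitosis genes was 80.0% ± 22.9 and 82.5% ± 18.7 (n = 6 each), lower in 3 libraries, higher in 1 and equal in 2, where both sides stood at 100%. The difference of -2.55 points did not pass (exact permutation over the signs of the pairs, p = 0.75). The 2 equal pairs do not change with sign, so this test could not have passed at 0.05 whatever the others held. Leaving out 1 library at a time moved the difference between -7.10 and 0.518. No member (0 by edgeR with the library as a block, and 0 by DESeq2) was called, with 0.192% of all genes called and 1 member, Mki67, at an unadjusted p under 0.05. Mki67 had a log2 fold of 0.44 ± 0.20 and Ccnb2, the second B-type cyclin, -0.41 ± 0.19. At E10.0, 15 of 25 Gja5-positive and 40 of 55 Gja5-negative Cdh5 cells had 15 or more, and at E9.5 26 of 29 and 20 of 23. The median number of mitosis genes in positive and negative cells was 30 and 31 at E8.5, 23 and 28.5 at E9.0, 23 and 27 at E9.5 and 22 and 25 at E10.0. It was lower in the positive cells at each of these stages, over cells pooled from libraries and with no test.

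Runx1, a transcription factor needed for blood formation from endothelium, divided the Cdh5 cells unevenly. Positive cells numbered 12 at E8.0, 6 at E8.5 and 3 at each of E9.0, E9.5 and E10.0. All of them had 15 or more mitosis genes before E10.0, and 1 of the 3 at E10.0 did. In 3 libraries both kinds had at least 3 cells, with a share of 100% in each and a difference of 0, and 3 pairs cannot give an exact p below 0.25. No member (0 by edgeR and 0 by DESeq2) was called, none (0) had an unadjusted p under 0.05, and 0% of all 8805 genes were called. The median number of mitosis genes in Runx1-positive and Runx1-negative Cdh5 cells was 31.5 and 33 at E8.0, 30.5 and 31 at E8.5, 18 and 29 at E9.0, 24 and 26 at E9.5, and 13 and 26 at E10.0. It was lower in the positive cells at each stage, over few cells and with no test.

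Blood-marker cells held most of the set more often than Cdh5 cells, by a limit of 30 genes added after the data were seen. Over all stages 175 of 183 blood-marker cells had 15 or more mitosis genes, and 152 had 30 or more, against 262 and 135 of 295 Cdh5 cells. These counts are tied to stage, as 2 of the blood-marker and 80 of the Cdh5 cells were of E10.0. In the 8 libraries with at least 3 of each, the share with 15 or more was 100% and 98.3% ± 4.82, a difference of 1.70 points. In 7 of the 8 both sides stood at 100%, so the exact permutation over the signs of the pairs could not have passed. With 30 or more, the added limit, blood-marker cells were 26.3 points higher (adjusted p = 0.0469). Detected genes per cell differ too: after thinning the median was 6426 in blood-marker and 6055 in Cdh5 cells at E8.5, and the part of this was not tested.

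By level, 4 of the 37 genes were lower in blood-marker cells and 0 higher (edgeR with the library as a block, 8 pairs), where 18.8% of all genes were called (7.43% higher, 11.4% lower). Anln had a log2 fold of -1.07 ± 0.29 (adjusted p = 0.0207), Kif23 -0.81 ± 0.22 (adjusted p = 0.0186), Cdk1 -0.50 ± 0.14 (adjusted p = 0.0215) and Ttk, the Mps1 kinase that starts the spindle checkpoint, -0.78 ± 0.26 (adjusted p = 0.0475). DESeq2 called the same 4. Without the block the count was 2 (Anln and Ttk), and without E8.5 replicate 2 it was 2 (Cdk1 and Kif23). Ttk also lost its call without E8.0 replicate 1, E8.5 replicate 1, 3 or 10, or E9.0 replicate 5. With gates at 1 count the count was 0 and Ttk had a log2 fold of 0.80 (edgeR adjusted p = 0.60). With gates at 50 CPM the count was 9, of which 6 were higher and 3 lower in blood-marker cells. Only 2 of the 4 genes, Anln and Kif23, were among those 9. Between stages, blood-marker cells showed no called member (0 by edgeR and by DESeq2) from E8.5 to E9.0 or from E9.0 to E9.5, with 5 and 4 at an unadjusted p under 0.05 and 3.26% (2.40% higher, 0.865% lower) and 0.00779% of all genes called. Their shares with 15 or more were 100% in all 10 libraries of E8.5, 94.6% ± 7.36 (n = 5) at E9.0 and 91.3% ± 12.7 (n = 9) at E9.5, and neither step passed (adjusted p = 0.190 and 0.741, exact permutation).

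Of the 8 blood-marker cells with fewer than 15 mitosis genes, 6 carried a platelet-lineage gene alone. Cells with the platelet glycoprotein gene Gp1bb, and without the red cell factor Klf1 or the myeloid factor Spi1 at 10 CPM, numbered 33, and 27 of them had 15 or more mitosis genes. The remaining 2 of the 8 were among the 73 cells with more than 1 of these 3 genes or with none. All 23 cells with Klf1 alone and all 54 with Spi1 alone had 15 or more. These counts pool stages and are descriptions, with no test over libraries. The Gp1bb cells numbered 1 at E8.5, 11 at E9.0 and 21 at E9.5. The Klf1 cells numbered 7 at E8.0, 14 at E8.5 and 2 at E9.5. The Spi1 cells numbered 13 at E8.0, 27 at E8.5, 10 at E9.0, 2 at E9.5 and 2 at E10.0. No cell of any class had fewer than 15 at E8.0 or E8.5, so lineage and stage are tied together in these counts. The median number of mitosis genes was 32 in Gp1bb cells, 33 in Klf1 cells and 32 in Spi1 cells. At E9.5 the 21 Gp1bb cells had an interquartile range of summed CPM from 1256 to 9456.

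Other genes of mitosis, S phase and cell cycle exit gave a mixed picture. From E8.5 to E10.0, of 50 other mitosis genes 2 rose and 1 fell, where 31% of all genes were called (15.2% higher, 15.8% lower). Kif4, a chromosome-bound kinesin, had a log2 fold of 0.74 ± 0.26 (edgeR adjusted p = 0.0254), Ckap2l, a spindle protein, 0.71 ± 0.25, and Spc24, a subunit of the kinetochore Ndc80 complex, -0.63 ± 0.21. From E9.5 to E10.0 Spc24 and Fzr1, the G1-phase activator of the anaphase-promoting complex, fell, where 16.4% of all genes did. In Cdh5 cells against E9.0, Aspm, a spindle pole protein, and Ckap2l rose, by 1.75 ± 0.46 and 1.38 ± 0.33. Cks1b, a Cdk1-binding subunit, fell by 0.83, with 2.36% of all genes called there. Between blood-marker and Cdh5 cells Spc24, Cenph and Cenpm were higher and Ckap2l and Fam64a lower, with 18.8% of all genes called.

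Of 16 S phase genes 13 fell from E8.5 to E10.0 over all cells, where 15.8% of all genes did. Among the 13 was Mcm2, a subunit of the replicative helicase, with a log2 fold of -1.30 ± 0.21. In Cdh5 cells 0 of 16 were called (6 at an unadjusted p under 0.05), where 6.07% of all genes were. Of 9 genes of cell cycle exit and G1 phase 6 rose over all cells, where 15.2% of all genes did. Cdkn1b, the p27 inhibitor of cyclin-dependent kinases, was among them at 1.93 ± 0.59. In Cdh5 cells the antiproliferative genes Btg1 and Btg2 rose, by 1.52 ± 0.44 and 3.27 ± 0.54, where 2.86% of all genes did. Over all cells the median summed CPM of the S phase genes was 2748 in a cell of E8.5 and 1017 at E10.0. Those of the exit and G1 genes were 250 and 725. In Cdh5 cells the medians were 2599 and 998 for S phase, and 360 and 739 for exit and G1. Blood-marker cells of E8.5 had 116 for exit and G1. Of the 6 genes that rose, Ccnd1, a cyclin of G1 phase, and Cdkn1c were lower in blood-marker than in Cdh5 cells (log2 folds of -3.66 and -2.93). Btg2 was higher there (1.37). The part of cell class was not tested.

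In the sorted samples the CR cells had lower levels of nearly all mitosis genes than the Gja5+Cd44+ YS cells. With 1 sample a group there is no test, and intervals cover counting error only. The 37 genes together took 6763 CPM (95% Poisson interval 6715 to 6811) in the 50 Gja5+Cd44+ YS cells, 6278 CPM (6224 to 6332) in the 36 Gja5-Cd44+ YS cells and 3628 CPM (3589 to 3667) in the 44 Gja5+Cd44+ CR cells. Of the 37 genes 36 were lower in CR than in Gja5+Cd44+ YS, 14 of them at least 2-fold, where 12.1% of 8509 genes were at least 2-fold lower. The median log2 ratio was -0.74 over the 37 and 0.05 over all 8509 genes. Prc1, a bundler of the central spindle, had 353 CPM (342 to 364) in YS and 85.6 (79.7 to 91.8) in CR, a log2 ratio of -2.04. Mki67 had 859 CPM (842 to 876) and 237 CPM (228 to 248). The 16 S phase genes went the other way, with 1569 CPM together in Gja5+Cd44+ YS and 2112 CPM in CR, a log2 ratio of 0.43. Bub3 was the exception among the 37, with 168 CPM (161 to 176) in YS and 184 (176 to 193) in CR.

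The representatives of each role followed that order, with the size of the gap varying. Ccnb1 had 182 CPM in Gja5+Cd44+ YS and 111 CPM in CR. Plk1 had 103 and 74.4 CPM, Mad2l1 60.6 and 50.1 CPM, and Cenpf 333 and 215 CPM. Kif11 had 82.2 and 44.0 CPM and Birc5 402 and 274 CPM. Top2a had 581 and 346 CPM, and Cdc20 231 and 156 CPM. Within Cdh5 cells the order held, with 6564 CPM over the 37 genes in 46 Gja5+Cd44+ YS cells and 3282 CPM in 37 CR cells. The RNA of red cells moved with these samples: over 6 erythroid genes, globins among them, the median cell had 11684 CPM (quartiles 7422 and 20926) in Gja5+Cd44+ YS and 127 CPM (83.6 and 179) in CR, with 4 and 3 of the 6 at a median of at least 10 CPM and Klf1 and Epor at 0 in both. Its part in the result was not tested.

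Between the Gja5+Cd44+ and Gja5-Cd44+ YS samples the genes did not lean one way. The median log2 ratio was 0.07, with 21 of 37 above 0, and -0.00649 over all genes. Gja5+Cd44+ cells were at least 2-fold higher in 5 genes, where 17.3% of all genes were, and at least 2-fold lower in 1, where 14.4% were. The 5 were Cdc25c, a phosphatase that activates Cdk1, at 2.94, Prc1 at 1.42, Nusap1 at 1.21, Anln at 1.14 and Ttk at 1.10. Ckap2, a microtubule-associated protein, was lower at -1.11. The Gja5-Cd44+ sample held 21 blood-marker cells of 36, and Gja5+Cd44+ YS held 4 of 50, and of 6 mesenchyme genes 3 had a median of at least 10 CPM there, against 0 of 6. Their part was not tested.

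By cells, most sorted cells held 15 or more of the set. They were 29 of 33 deep enough to be thinned in CR (87.9%, exact Clopper-Pearson interval 71.8% to 96.6%), 34 of 37 in Gja5+Cd44+ YS (91.9%, 78.1% to 98.3%) and 23 of 24 in Gja5-Cd44+ YS (95.8%, 78.9% to 99.9%). The order of the samples changed with the limit: with 20 or more genes the shares were 75.8% in CR, 70.3% in Gja5+Cd44+ YS and 70.8% in Gja5-Cd44+ YS. Cells below 100000 counts, which were left out, numbered 11 of 44, 13 of 50 and 12 of 36. The median summed CPM of a cell was 2155 in CR, 5061 in Gja5+Cd44+ YS and 4570 in Gja5-Cd44+ YS, and 15, 11 and 6 cells lay under 1000 CPM.

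**Figure D5:**
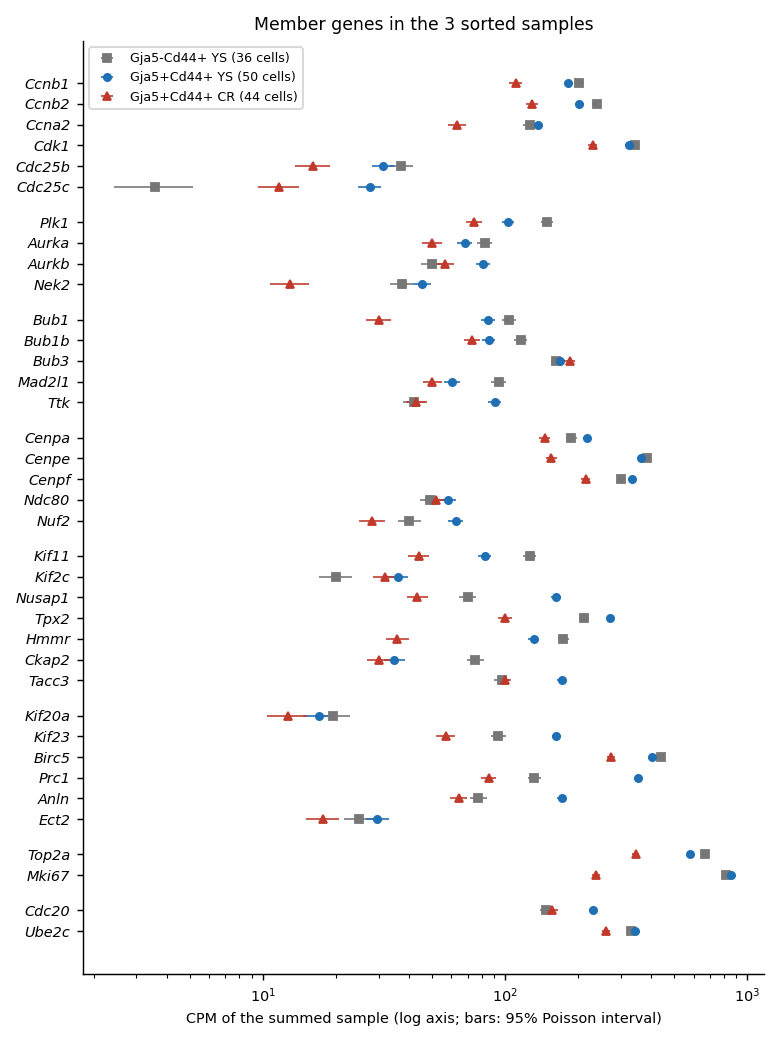
CPM of the 37 mitosis genes in each of the 3 sorted samples on a log axis, with counts summed over the cells of the sample and 95% Poisson intervals that cover counting error only. Red triangles (CR) lie left of the blue circles (Gja5+Cd44+ YS) for 36 of 37 genes, while the grey squares (Gja5-Cd44+ YS) lie on both sides of the blue ones.

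Members differed in how closely they followed the rest of the set from cell to cell. Across the 295 Cdh5 cells the Spearman correlation of the CPM of a gene with the summed CPM of the other 36 was 0.81 for Cenpf, 0.80 for Cenpe and Ube2c, 0.78 for Ccnb1 and 0.77 for Aurka. It was lowest for Kif20a at 0.17, Ccnb2 at 0.29 and Cdc25b, another phosphatase that activates Cdk1, at 0.32. Cells are not independent replicates and the values share library and depth, so these are descriptions. Birc5 had 0.28 in the 74 Cdh5 cells of E8.5 and 0.83 in the 80 of E10.0. The corresponding values were 0.55 and 0.84 for Top2a and 0.76 and 0.65 for Plk1. The summed CPM of the 37 genes had a correlation with that of the 16 S phase genes of -0.69 in Cdh5 cells of E8.5 and 0.04 in those of E10.0.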

How the data were processed

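Each table the authors deposited holds whole counts, with gene symbols in rows and cells in columns, from libraries made by a modified STRT protocol, per the labels' protocols. The build was mm10, per the submitters' processing notes. Not given in the sources used here are the aligner, the annotation and whether molecular identifiers were collapsed, so a count may be a molecule or a read. Before use, 92 spike-in rows of the sorted tables were removed.

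Counts were summed per library and class of cell (at least 3 cells) and tested with edgeR 4.0.16 in R 4.3.3: TMM scaling, filterByExpr, quasi-likelihood test, all stages in 1 fit, Benjamini-Hochberg adjustment over all genes. Standard errors were derived from the fold and the F statistic. Gja5, Runx1 and class contrasts kept the library as a block, since both sides come from the same library. DESeq2 1.42.0 was an alternative. Cells were thinned to 100000 counts (36 sorted cells were shallower and left out), and shares of cells were compared over libraries by exact permutation, adjusted over the contrasts of a class. Intervals cover counting error only. Doublets were not called: cells were picked after a look at their morphology, per the labels' protocols.

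The 37 genes and all other lists were chosen with earlier results of these data known. Genes given in full were 9 representatives of their roles and the members called in a comparison. Other names were chosen after their values were seen. On simulated counts, most false calls lay among genes under 10 CPM.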

Additional observations from a re-analysis of the deposited data

Results flagged for a closer look

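Single libraries that stood apart from the rest of their stage were found in 5 of the 44 sets of libraries examined, where chance gives about 1 in 20. In E9.0 replicate 3 Cenpf stood at 469 CPM, and the next library at 219 CPM. In E9.0 replicate 2 Top2a stood at 682 CPM, next to 388 CPM. In E9.5 replicate 6 Mki67 stood at 849 CPM, next to 475 CPM, and the 37 genes together at 10137 CPM, next to 7333 CPM. In E9.5 replicate 7 the share of cells with 15 or more mitosis genes was 62.5%, the lowest of 10 libraries.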

How the results depend on the processing

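Across the alternatives other than leaving out a library, comparison values were sorted by fixed rules. A difference in share was the same if it stayed on its side of the threshold, whatever its direction where neither value passed. A count of called genes was the same if it changed little in number. A sorted share was the same if it lay within the main interval, and otherwise had moved. By these rules 187 values were the same, 21 stronger, 7 weaker and 11 moved. Of single-gene folds 79 kept their call, 34 lost it and 1 reversed. Ttk, between blood-marker and Cdh5 cells, reversed to 0.80 with gates at 1 count. The causes were not tested.

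Counts of called mitosis genes were, for E10.0 against E8.5 in Cdh5 cells, 4 with no filter on low counts, 2 with DESeq2, 0 with gates at 1 count, 3 with gates at 50 CPM and 2 with blood-marker cells kept. Against E9.0 they were 5, 5 and 1 for the first 3 of these settings and 4 with blood-marker cells kept. With consecutive batches summed, E10.0 against E8.5 and against E9.5 gave 0 and 0, with fewer units in the fit. Blood-marker against Cdh5 cells gave 2 with no replicate block, 0 with gates at 1 count and 9 with gates at 50 CPM (6 higher, 3 lower). The block changed no call for Gja5 or Runx1 (0 in both fits). No paired analysis was possible for the stages because replicate numbers were given in accession order and the labels do not tie libraries of different stages together.

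Differences in the share of cells passed at other limits. From E8.5 to E9.0 they were -9.84 points at 50000 counts, -15.4 at 20 genes and -27.0 at 30. From E9.5 to E10.0 they were -7.77 with no thinning, -8.86 at 10 genes, -17.1 at 20 and -29.2 at 30. In Cdh5 cells E10.0 against E8.5 gave -33.5 at 30 genes, -22.9 with gates at 50 CPM and -22.6 with blood-marker cells kept. Gates at 50 CPM can move blood-marker cells into the Cdh5 class, as given above. E9.0 against E8.5 gave -33.6 at 30 genes, and E10.0 against E9.0 -17.6 with blood-marker cells kept. Blood-marker against Cdh5 cells gave 26.3 at 30 genes. E10.0 against E8.5 gave -29.0 with batches pooled, where 3 units against 3 cannot reach 0.05.

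Shares in the sorted samples moved with the limit. In CR they were 61.5% at 50000 counts, 100% at 10 genes, 75.8% at 20, 21.2% at 30 and 65.9% with summed CPM of at least 1000. In Gja5+Cd44+ YS they were 74.4%, 100%, 37.8% and 78.0% at 50000 counts, 10 genes, 30 genes and 1000 CPM, and 70.3% at 20 genes. In Gja5-Cd44+ YS they were 87.5% at 50000 counts, 70.8% at 20 genes and 29.2% at 30.

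Leaving out 1 library at a time, counts of calls ran from 7 to 12 (E10.0 against E8.5), 4 to 9 (against E9.5), 0 to 2 and 1 to 4 (Cdh5 cells, against E8.5 and E9.0) and 2 to 5 (blood-marker against Cdh5 cells). Differences in share ran from -25.4 to -19.6 (E10.0 against E8.5), -15.5 to -9.46 (against E9.5), and in Cdh5 cells -25.8 to -19.6 and -22.9 to -15.6 (against E8.5 and E9.0).

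Small libraries limit every share: with 5 cells a library moves in steps of 20 points. Levels of Nek2 and Cdc25c rest on few counts a cell. The stage and class make-up of cells are tied together, and stage and batch number partly so, which the within-class fits answer only in part.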
